A study of Arabidopsis thaliana with 30 samples.

Results

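The 5 genes described here encode enzymes of the last stretch of jasmonate synthesis in Arabidopsis thaliana: OPR3, OPCL1, ACX1 and KAT2, which act in the peroxisome, and JAR1, which acts after it. They were picked by locus identifier, with earlier results of these data known. All 5 of them were present among the 27655 genes of the expression table and passed the filter on low values. The samples were whole leaves of jazD plants in the Col-0 ecotype, 26 days old, that received a spray of 5 µM coronatine dissolved in water, or of water (mock). Leaves were taken at 0, 1, 3, 12 and 24 h, with 3 replicates of each treatment and time, so that 30 libraries formed 10 groups. Coronatine is a bacterial toxin that imitates the active hormone, jasmonoyl-isoleucine, and jazD plants, as background that the labels do not give, lack most of the JAZ repressors of jasmonate signalling. Coronatine-treated and mock leaves carried the same jazD genotype, and leaves without it were not part of the comparison. The series design set treated against mock leaves at each time, during a response in which coronatine-treated jazD leaves lose their green colour.

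Jasmonate synthesis starts in the plastid, where linolenic acid is oxidised and cyclised to 12-oxo-phytodienoic acid (OPDA). OPDA moves to the peroxisome, where OPR3 reduces its ring, OPCL1 joins the product to coenzyme A, and rounds of beta-oxidation shorten the side chain to jasmonic acid. Each round needs an acyl-CoA oxidase such as ACX1, a multifunctional hydratase-dehydrogenase, and a 3-ketoacyl-CoA thiolase such as KAT2. In the cytosol JAR1 couples jasmonic acid to isoleucine and so makes the hormone that its receptor recognises. Genes of this pathway are known to respond to jasmonate itself.

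On the TAIR10 build, as given in the authors' deposited table, OPR3 (AT2G06050) lies on chromosome 2 from 2359115 to 2362180 on the reverse strand. OPCL1 (AT1G20510) lies on chromosome 1 from 7103454 to 7105881, reverse. ACX1 (AT4G16760) lies on chromosome 4 from 9424633 to 9428864, reverse. KAT2 (AT2G33150) and JAR1 (AT2G46370) are on chromosome 2, from 14047478 to 14051140 on the reverse strand and from 19033741 to 19036445 on the forward strand.

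The 250 bases upstream of the gene start are shown for 4 of the genes. With coronatine, OPR3 and OPCL1 rose early, ACX1 climbed in steps and JAR1 rose only at 24 h. They were read from the TAIR10.1 genome at the gene starts of its RefSeq annotation, which differ from the starts in the authors' table. Capitals mark CACGTG (the G-box) and its variants, written AACGTG here for the first of them and CACATG for the other, which MYC factors of jasmonate signalling are known to bind. Both strands were searched.
OPR3 upstream, chr2:2362376-2362625, reverse strand: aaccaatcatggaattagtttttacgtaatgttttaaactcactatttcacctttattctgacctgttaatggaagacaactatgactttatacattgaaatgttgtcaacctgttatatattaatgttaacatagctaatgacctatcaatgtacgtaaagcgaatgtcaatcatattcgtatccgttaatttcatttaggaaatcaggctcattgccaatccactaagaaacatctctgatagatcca
OPCL1 upstream, chr1:7106122-7106371, reverse strand: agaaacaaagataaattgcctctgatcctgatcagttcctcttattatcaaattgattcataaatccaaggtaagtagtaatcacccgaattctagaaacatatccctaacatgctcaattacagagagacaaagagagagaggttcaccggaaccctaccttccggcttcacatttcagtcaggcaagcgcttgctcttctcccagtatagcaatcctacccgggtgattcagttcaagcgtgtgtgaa
ACX1 upstream, chr4:9428896-9429145, reverse strand: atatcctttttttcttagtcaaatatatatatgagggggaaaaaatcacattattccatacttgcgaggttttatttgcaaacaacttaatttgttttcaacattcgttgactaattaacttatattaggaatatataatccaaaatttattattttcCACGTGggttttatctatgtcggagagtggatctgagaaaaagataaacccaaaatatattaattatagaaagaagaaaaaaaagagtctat
JAR1 upstream, chr2:19033336-19033585, forward strand: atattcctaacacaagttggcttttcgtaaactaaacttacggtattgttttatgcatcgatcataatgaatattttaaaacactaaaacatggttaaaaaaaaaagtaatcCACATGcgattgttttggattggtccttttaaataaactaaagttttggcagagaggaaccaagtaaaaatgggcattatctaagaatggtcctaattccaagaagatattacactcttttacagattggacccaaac
CACGTG was found upstream of ACX1, at 92 to 87 bases before the start, and CACATG upstream of JAR1, at 138 to 133 bases before the start. The same windows of OPR3 and OPCL1, and that of KAT2, held none of the 3 motifs. The stretch between each window and the gene start in the authors' table was not searched, and it was shortest for ACX1. Of 27443 windows of the same length, 6.5% held CACGTG, 7.5% AACGTG and 11.1% CACATG. A match describes these letters and shows no binding.

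Values are TPM, a transcript abundance scaled to transcript length and library total, which can be compared between genes. They keep no record of sequencing depth, which is therefore unknown. No label says that replicates came from separate plants, so that p-values measure the spread between these samples, which may be technical. In whole leaves, fewer cells of a type and less RNA per cell cannot be told apart. Tests used limma on log2(TPM + 1), with p-values adjusted over 19005 genes. On TPM as deposited the median of all tested genes shifted by -0.18, -0.46, -0.54 and -0.24 on the log2 scale at 1, 3, 12 and 24 h, against 0.02 at 0 h. The words rose and fell are therefore kept for genes called at 0.05 in the same direction on the deposited TPM and after TMM rescaling. On TPM as deposited 1814 genes were higher and 7919 lower at 1 h, against 3233 and 2899 after rescaling. At 3 h these numbers were 2693 and 12843 against 6727 and 6793, and at 12 h they were 4609 and 11700 against 8290 and 7869. Replicates of a group had Spearman correlations of 0.986 to 0.995 across genes. The mock 1 h replicate 2 stood apart in this pathway: of 17 tested members and plastid jasmonate genes, it had the highest value of its group in 15, and results at 1 h are given with and without it.

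Markers of the leaf's cell types moved with the treatment. The summed level of 3 mesophyll markers (RBCS1A, CA1 and LHCB1.1) was 30452 to 31059 TPM in coronatine leaves at 0 h, 5024 to 6553 TPM at 12 h and 1805 to 3056 TPM at 24 h. In mock leaves it ran from 20821 to 34112 TPM over the 5 times. Between coronatine and mock leaves, 2 of the 3 markers fell at 12 h and 3 of 3 at 24 h. All 4 epidermis markers fell at 1, 3, 12 and 24 h, and their sum went from 452 to 469 TPM at 0 h to 19.1 to 26.8 TPM at 24 h in coronatine leaves. Of 4 guard cell markers, 1 fell at 1 h, 1 rose at 12 h and 2 rose at 24 h. Of 4 phloem markers, 1 fell at 3 h and 1 rose at each of 12 and 24 h. Of 2 tested xylem markers, 1 rose at 3 and 12 h and 2 at 24 h. Among all tested genes, 9.52% rose and 15.3% fell at 1 h, and 14.2% and 35.7% at 3 h. These shares were 24.3% and 41.4% at 12 h, and 37.2% and 43.5% at 24 h. At 24 h the summed guard cell markers were at 48.6 to 55.0 TPM with coronatine and 36.2 to 38.4 TPM in mock leaves, the phloem markers at 242 to 257 and 259 to 271 TPM, and the xylem markers at 28.6 to 36.2 and 12.8 to 13.7 TPM. None of these leaf markers was at 0 throughout a group. The sum of 5 flower markers never passed 0.97 TPM. The part of these shifts in the results on the 5 genes was not tested.

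In mock leaves at 0 h the 5 genes were expressed at 24.0 to 126 TPM. OPCL1 (126 ± 6.03 TPM, SD, n = 3) and OPR3 (119 ± 5.45 TPM) were the most abundant, with overlapping ranges, followed by KAT2 (85.7 ± 6.65 TPM), ACX1 (66.1 ± 4.62 TPM) and JAR1 (24.0 ± 1.35 TPM). JAR1 was the lowest of the 5 in all 10 groups. After coronatine the order changed. At 1 and 3 h it was OPR3, OPCL1, ACX1, KAT2 and JAR1, and no neighbours overlapped in range. At 24 h it was OPR3 and KAT2, which overlapped, then ACX1, OPCL1 and JAR1.

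**Figure D1:**
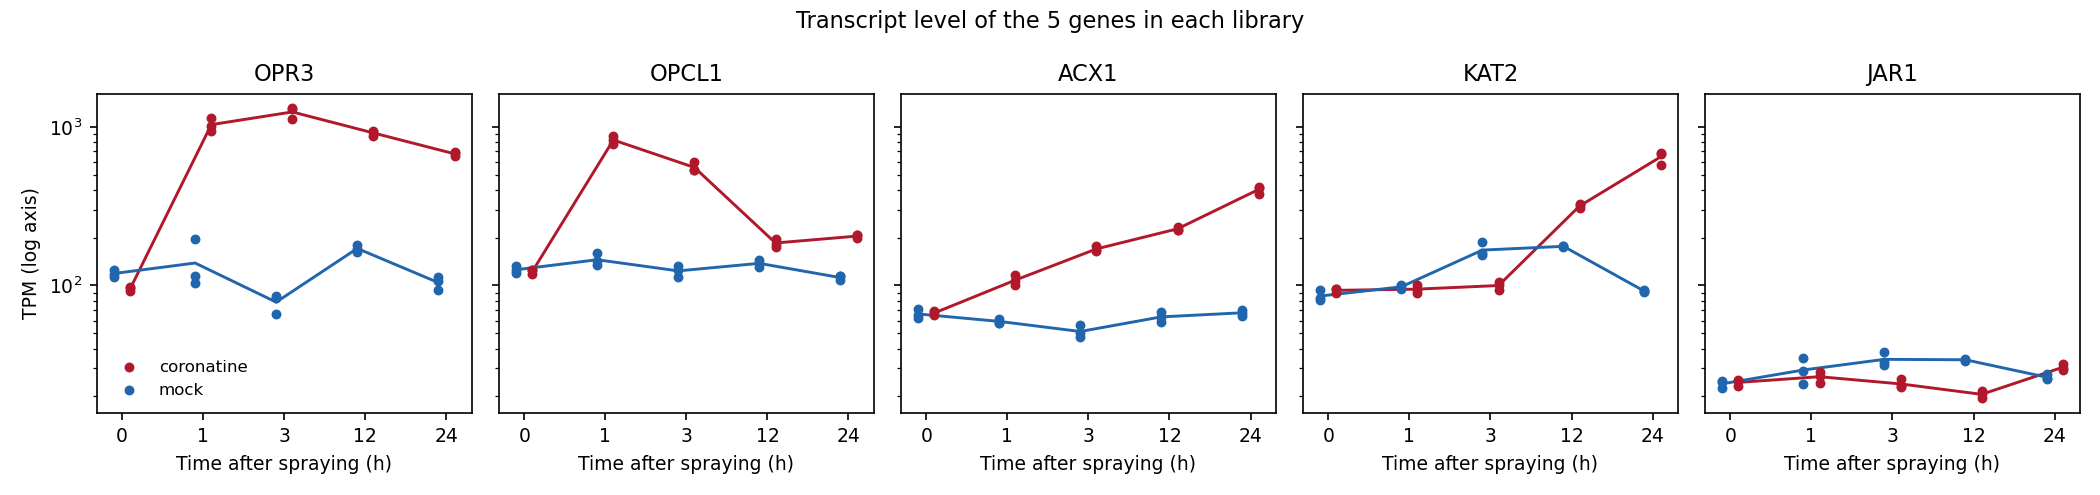
TPM (log axis) of OPR3, OPCL1, ACX1, KAT2 and JAR1 against time after spraying, with a point for each library and lines through the group means (red coronatine, blue mock, n = 3). OPR3 and OPCL1 stand highest at 1 to 3 h of coronatine, ACX1 climbs to 403 TPM and KAT2 to 647 TPM at 24 h, and JAR1 stays between 19.4 and 38.2 TPM in every library.

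OPR3, the OPDA reductase, rose within 1 h of coronatine and stayed up to 24 h. At 0 h the coronatine libraries read 92.8, 96.6 and 97.3 TPM and the mock libraries 124, 114 and 119 TPM. The coronatine libraries were thus all below the mock ones before any response, although the difference (-0.31 ± 0.14 on the log2 scale, SE) was not called (adjusted p = 0.93). None of the 5 genes was called at 0 h, when 0% of tested genes were higher and 0% lower. At 0 h 1012 genes had an unadjusted p under 0.05, and the authors' deposited table called 0 genes with 786 at an unadjusted p under 0.05.

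At 1 h OPR3 reached 1142, 943 and 1015 TPM, against 104, 197 and 115 TPM in mock leaves, and the groups did not overlap. The 197 TPM is the mock library that stood apart. The ratio of means was 7.46 and the log2 difference 2.94 ± 0.14 (adjusted p = 9.6e-15), or 3.23 without that library. At 3 h OPR3 read 1315, 1290 and 1121 TPM with coronatine and 86.0, 66.5 and 82.9 TPM in mock leaves. This 15.8-fold difference (log2 difference 3.97 ± 0.14, adjusted p = 3.8e-18) was the largest ratio of means among the 5 genes and the 5 times. At 12 h the levels were 882, 922 and 942 TPM against 162, 181 and 171 TPM, and at 24 h 682, 690 and 657 TPM against 93.1, 106 and 113 TPM. The groups stayed apart, with ratios of 5.35 and 6.49.

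The size of the OPR3 effect changed with time. From 1 to 3 h it grew by 1.03 ± 0.20 on the log2 scale (adjusted p = 1.2e-04), or by 0.75 without the mock 1 h replicate 2. From 3 to 12 h it changed by -1.56 ± 0.20 (adjusted p = 2.7e-07). Both of these changes were called on both scalings, and that from 12 to 24 h (0.28 on TPM, -0.10 after rescaling) was not.

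OPCL1, which activates the OPR3 product with coenzyme A, rose as early as OPR3 but its response shrank by 12 h. At 1 h it read 872, 824 and 784 TPM with coronatine and 134, 160 and 142 TPM in mock leaves, with no overlap. The ratio was 5.69 and the log2 difference 2.50 ± 0.07 (adjusted p = 4.6e-19), or 2.57 without the mock library that stood apart. At 3 h it read 532, 535 and 598 TPM against 133, 113 and 125 TPM, a ratio of 4.49. The level with coronatine was lower than at 1 h and still above every mock library.

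At 12 h OPCL1 had come down to 197, 175 and 184 TPM, near the 138, 131 and 144 TPM of mock leaves. The log2 difference was 0.42 ± 0.07 (adjusted p = 2.4e-06) on TPM and 1.13 after rescaling, so that it rose on both but its size depends on the scaling. At 24 h it read 207, 207 and 200 TPM against 108, 114 and 114 TPM, with log2 differences of 0.86 and 1.19 on the 2 scalings. From 3 to 12 h the OPCL1 effect changed by -1.74 ± 0.09 (adjusted p = 4.9e-14), the most negative step of the 5 genes. Its changes from 1 to 3 h (-0.34) and from 12 to 24 h (0.44) were called on TPM as deposited but not after rescaling (0.02 and 0.06).

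ACX1, an acyl-CoA oxidase that carries out the oxidation step opening each round of beta-oxidation, climbed in steps through the 24 h. In coronatine leaves it read 64.7, 68.6 and 67.9 TPM at 0 h, within the 62.3 to 71.2 TPM of mock leaves. At 1 h it read 117, 106 and 101 TPM against 58.0, 61.7 and 58.2 TPM (log2 difference 0.85 ± 0.07, adjusted p = 7.7e-11), or 0.88 without the mock library that stood apart. The groups were separate from 1 h on.

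At 3 h ACX1 read 177, 166 and 166 TPM against 56.4, 50.01 and 47.3 TPM, a ratio of 3.32. At 12 h it read 224, 234 and 225 TPM against 59.0, 63.4 and 67.6 TPM, a ratio of 3.59. At 24 h it read 419, 376 and 414 TPM against 67.0, 70.3 and 64.4 TPM, a ratio of 5.99 (log2 difference 2.57 ± 0.07, adjusted p = 8.8e-22). All 3 coronatine libraries were thus higher at each later time than all 3 at the time before. The effect grew from 1 to 3 h by 0.86 ± 0.09 (adjusted p = 2.7e-08) and from 12 to 24 h by 0.73 ± 0.09 (adjusted p = 2.6e-07), or 0.36 after rescaling (adjusted p = 0.0041). Between 3 and 12 h its change (0.12) was not called on TPM as deposited, and 0.26 after rescaling was (adjusted p = 0.027).

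KAT2, the thiolase that releases acetyl-CoA at the end of each round, responded late. At 1 h it read 101, 94.3 and 89.0 TPM with coronatine and 98.8, 95.1 and 100.1 TPM in mock leaves. The groups overlapped, and the log2 difference of -0.05 (0.15 after rescaling, and -0.07 on TPM without the mock library that stood apart) was not called. At 3 h it read 105, 100.3 and 94.2 TPM with coronatine, close to its 0 h level of 94.6, 95.03 and 89.7 TPM, while mock leaves had gone to 187, 155 and 160 TPM. The log2 difference at 3 h was -0.73 ± 0.07 on TPM (adjusted p = 6.8e-10) and -0.17 after rescaling (adjusted p = 0.056), so that it is not said to have fallen. In the authors' deposited table the log2 fold change at 3 h was -0.19 with an adjusted p of 0.020.

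At 12 h KAT2 stood at 320.0, 325 and 306 TPM with coronatine, above the 178, 175 and 176 TPM of mock leaves. The log2 difference was 0.84 ± 0.07 (adjusted p = 3.0e-11) and 1.55 after rescaling. At 24 h it reached 679, 574 and 689 TPM against 94.0, 91.6 and 90.3 TPM, a ratio of 7.04 (log2 difference 2.80 ± 0.07, adjusted p = 5.2e-22). All coronatine libraries lay above all mock ones. On TPM its ratio at 24 h was above the 6.49 of OPR3 and the 5.99 of ACX1, a difference between genes that was not tested. The effect changed by -0.68 ± 0.10 from 1 to 3 h (adjusted p = 2.3e-06), or -0.32 after rescaling (adjusted p = 0.016), by 1.57 ± 0.10 from 3 to 12 h (adjusted p = 6.6e-13) and by 1.96 ± 0.10 from 12 to 24 h (adjusted p = 3.6e-14).

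JAR1, the amido synthetase that forms jasmonoyl-isoleucine, moved least. At 1 h it read 26.8, 28.6 and 24.4 TPM with coronatine and 28.8, 35.1 and 23.9 TPM in mock leaves, where the 35.1 TPM is the library that stood apart. The log2 difference was -0.12 (0.08 after rescaling, and 0.01 on TPM without that library) and was not called. Without mock 1 h replicate 3 it was -0.25 and called on TPM (adjusted p = 0.017). At 3 h it read 22.9, 25.6 and 23.3 TPM against 38.2, 33.0 and 31.4 TPM, and at 12 h 21.6, 20.7 and 19.4 TPM against 34.6, 33.4 and 34.0 TPM. Coronatine libraries lay below all mock libraries at both times. On TPM the differences were -0.49 ± 0.09 (adjusted p = 2.5e-05) and -0.70 ± 0.09 (adjusted p = 1.1e-07), near the -0.46 and -0.54 of the median gene. After rescaling they were 0.06 and -0.01 (adjusted p = 0.56 and 0.91), so that no fall of JAR1 beyond the median gene was called.

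At 24 h JAR1 read 30.3, 31.9 and 29.3 TPM with coronatine and 25.5, 27.6 and 26.1 TPM in mock leaves. The groups did not overlap, and the log2 difference was 0.20 ± 0.09 (adjusted p = 0.043) on TPM and 0.52 after rescaling (adjusted p = 3.4e-06). This small rise passed on TPM by a narrow margin: without coronatine 24 h replicate 1 or 2, or mock 24 h replicate 1 or 3, its adjusted p was 0.070, 0.13, 0.11 and 0.087. It was also not called with quantile normalization (0.093, adjusted p = 0.33) or with no filter on low values (0.20, adjusted p = 0.052). The JAR1 effect changed by 0.90 ± 0.13 from 12 to 24 h (adjusted p = 1.6e-06), or 0.53 after rescaling (adjusted p = 5.8e-04), and its earlier changes were not called on both scalings.

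**Figure D2:**
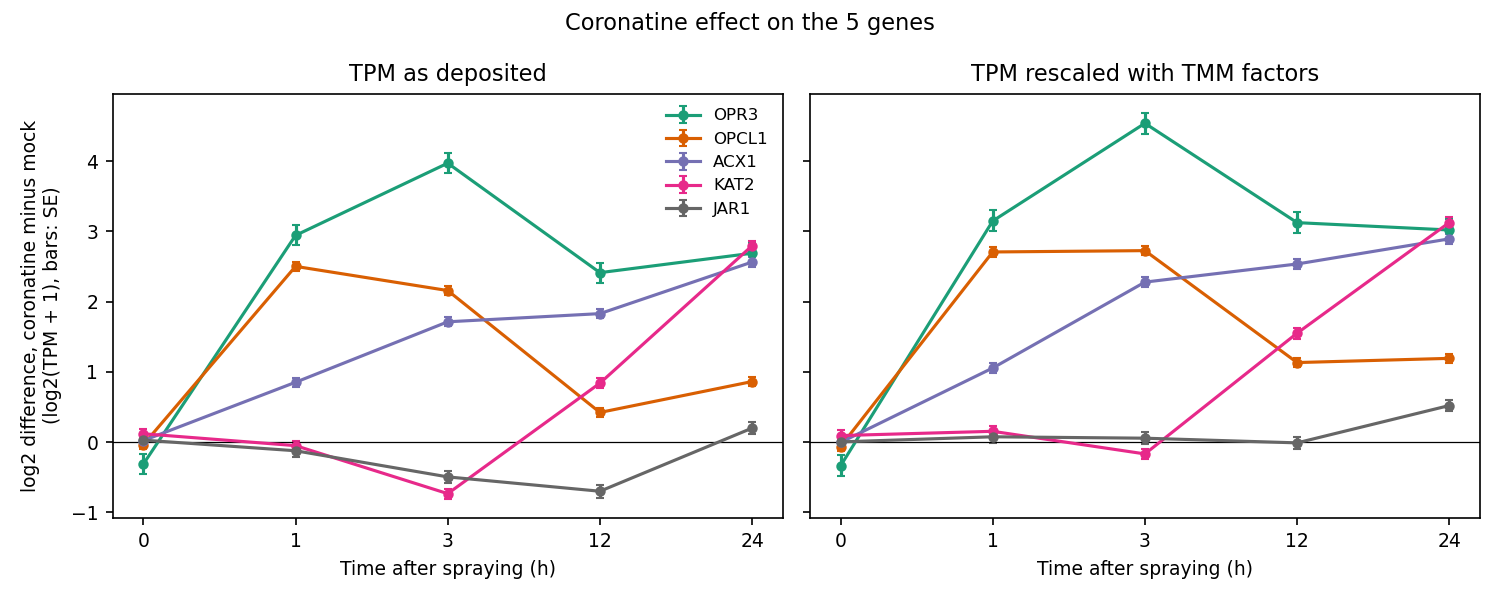
Log2 difference between coronatine and mock leaves for the 5 genes against time after spraying, on TPM as deposited (left) and after TMM rescaling (right). Points are fitted differences of log2(TPM + 1), bars are SE from limma. OPR3 peaks at 3 h, and OPCL1 is lower at 12 and 24 h than at 1 and 3 h. ACX1 and KAT2 are largest at 24 h, and JAR1 at 12 h lies at -0.70 on the left and -0.01 on the right.

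Of the 5 genes, 3 rose at 1 h and at 3 h (OPR3, OPCL1 and ACX1), 4 at 12 h (KAT2 in addition) and 5 at 24 h, and none fell. Without 1 of the 4 libraries of 24 h named above, or under the 2 settings that ended the JAR1 call, 4 rose there, and KAT2 fell at 3 h when replicate 1 of the coronatine leaves or replicate 2 of the mock leaves was dropped. Among all tested genes, 9.52% rose and 15.3% fell at 1 h, 14.2% and 35.7% at 3 h, 24.3% and 41.4% at 12 h, and 37.2% and 43.5% at 24 h. The median log2 difference of the 5 genes was 0.85, 1.71, 0.84 and 2.57 at 1, 3, 12 and 24 h. The signed change of effect between times was positive for 2 genes and negative for 1 (KAT2) from 1 to 3 h. From 3 to 12 h it was positive for 1 and negative for 2, and from 12 to 24 h positive for 3. A negative change need not be a smaller effect: on TPM KAT2 went from -0.05 at 1 h to -0.73 at 3 h. Nor need a positive one be larger, as JAR1 went from -0.70 at 12 h to 0.20 at 24 h. Among all tested genes the positive and negative shares were 11.2% and 25.1%, 30% and 30.6%, and 24.9% and 15.1% at these steps.

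In mock leaves the genes also moved through the day. KAT2 rose in mock leaves from 81.0, 82.8 and 93.3 TPM at 0 h to its 3 h level given above (log2 difference 0.95 ± 0.07, adjusted p = 2.7e-11) and 12 h level (1.04 ± 0.07, adjusted p = 4.7e-12), and was back at 92.0 ± 1.92 TPM at 24 h. JAR1 rose in mock leaves by 0.49 at both 3 and 12 h (adjusted p = 7.7e-05 and 6.4e-05). The 12 h rise of JAR1 shrank to 0.21 after rescaling (adjusted p = 0.047), since the median mock gene was shifted by 0.23 on TPM. OPR3 fell by 0.60 at 3 h (adjusted p = 0.0011) and ACX1 fell by 0.36 (adjusted p = 6.1e-05). At 3 h the separation of OPR3 and ACX1 between treatments thus had a mock level below that of 0 h, and that of KAT2 and JAR1 a mock level above it. OPCL1 (0.21) and JAR1 (0.26) at 1 h and OPR3 (0.52) at 12 h were called higher on TPM only, and ACX1 at 12 h was called lower (-0.34) only after rescaling.

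Among the 5 genes, 0 were called on both scalings at 1 h and 0 at 24 h, 2 rose and 2 fell at 3 h, and 2 rose at 12 h. The shares of all tested genes that rose and fell in mock leaves were 10.8% and 7.96% at 1 h, 22.8% and 20.3% at 3 h, 20.2% and 10.1% at 12 h, and 0.205% and 0.132% at 24 h. At 1 h the mock difference of OPR3 from 0 h was 0.16, and -0.12 without mock 1 h replicate 2.

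Each enzyme but OPCL1 was next set against the other genes of its family, as its share of the family's summed TPM, a ratio that does not depend on the scaling of a library. Reads of close copies can be assigned to either gene, so that shares within the OPR, ACX, KAT and GH3 families carry that uncertainty. The levels of OPCL1 and of its relatives close by on chromosome 1 may carry it too. Each test was an exact two-sided permutation test of 3 against 3 libraries, which cannot go below 0.1, and 20 such tests were run. The smallest p of 0.1 (0.11 after Benjamini-Hochberg adjustment) was reached wherever the ranges did not overlap, in 18 of the 20, so that none could pass 0.05. At 1 h coronatine minus mock shares were 36.8, 13.2, -23.6 and -6.48 percentage points for OPR3, ACX1, KAT2 and JAR1. Without mock 1 h replicate 2 they were 41.2, 13.8, -24.9 and -5.88 points.

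OPR3 held 56.9% ± 7.71 (SD, n = 3) of the OPR family in mock leaves at 1 h and 93.7% ± 0.299 with coronatine. At 3 h its share was 54.6% in mock and 98.1% with coronatine, and it was still 95.5% at 24 h. Neither relative rose with it at 1, 3 or 12 h. At 0 h its share was 65.6% in coronatine leaves and 69.9% in mock leaves, and these ranges did not overlap either. OPR1, which reduces other oxylipins better than the OPDA isomer used for jasmonate, fell at 1, 3, 12 and 24 h (20.1 ± 0.791 TPM against 58.8 ± 3.97 TPM at 3 h, log2 difference -1.50, adjusted p = 4.5e-16). OPR2 was not called at 1, 3 or 12 h (it fell at 3 h without coronatine replicate 1 or mock replicate 2 of that time) and rose at 24 h (6.49 ± 1.39 TPM against 4.597 ± 0.545 TPM, adjusted p = 0.0034).

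ACX1 held 24.4%, 20.5%, 32.4% and 29.8% of the acyl-CoA oxidase family in mock leaves at 1, 3, 12 and 24 h. With coronatine it held 37.6%, 42.4%, 42.8% and 41.3%, above mock in every library. At 0 h the shares were 28.2% and 28.7% and overlapped (p = 0.6, exact permutation). On both scalings its relatives were called at later times than ACX1, a difference in timing that was not tested. None of the 4 tested relatives (ACX2 to ACX5) rose at 1 h, 2 rose at 3 h (1 without coronatine 3 h replicate 3), 3 at 12 h and 4 at 24 h. The shares of all tested genes that rose were 9.52%, 14.2%, 24.3% and 37.2% at those times. In the authors' deposited table ACX4 (0.21, adjusted p = 0.0045) and ACX3 (0.19, adjusted p = 0.036) were already higher at 1 h, and ACX2 and ACX5 were not called. ACX6 was at or near 0 and was not tested.

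At 24 h ACX4, the short-chain oxidase, was at 347 ± 33.9 TPM against 89.7 ± 2.76 TPM, and ACX2, a long-chain oxidase, at 91.0 ± 11.1 TPM against 22.9 ± 1.15 TPM (log2 difference 1.94 for each). ACX5, the closest copy of ACX1, was low throughout: at 24 h it read 9.87 ± 0.671 TPM against 8.47 ± 0.791 TPM (log2 difference 0.20, adjusted p = 0.028). The count at 24 h was 3 without coronatine 24 h replicate 1 or 3 or mock 24 h replicate 3.

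KAT2 lost share of its family before it gained. In mock leaves it held 47.6%, 69.2%, 58.5% and 43.0% at 1, 3, 12 and 24 h, and with coronatine 24.0%, 14.7%, 36.2% and 52.7%. The 3 h difference was -54.5 percentage points, and at 24 h it was 9.69 points in the other direction. At 0 h the shares were 44.4% with coronatine and 39.4% in mock leaves, again without overlap. KAT5, a thiolase with peroxisomal and cytosolic forms, accounted for most of the rest. It read 286 ± 13.3 TPM against 93.3 ± 8.16 TPM at 1 h and 571 ± 47.9 TPM against 61.7 ± 0.427 TPM at 3 h (adjusted p = 2.5e-20), when KAT2 had not risen. KAT5 then stayed at 549 TPM at 12 h and 569 TPM at 24 h. KAT1 was not called at 1, 3 or 24 h (it fell at 24 h without coronatine 24 h replicate 1) and fell at 12 h (9.07 ± 0.462 TPM against 22.1 ± 0.345 TPM, adjusted p = 8.4e-14).

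JAR1 belongs to the GH3 family of amido synthetases, which join amino acids to jasmonate, auxin or other acids. It held 17.2%, 23.4%, 28.6% and 17.0% of the family's TPM in mock leaves at 1, 3, 12 and 24 h, and 10.7%, 6.13%, 2.28% and 2.83% with coronatine. The ranges were separate at those 4 times, while at 0 h the shares were 15.5% and 14.8% (p = 0.2, exact permutation). From 0 to 12 h of coronatine the family's summed TPM went from 158 to 902, while JAR1 was at 24.5 ± 1.06 TPM and then at 20.6 ± 1.11 TPM.

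GH3.10, a relative reported to conjugate jasmonate as well, had the largest log2(TPM + 1) difference of the GH3 genes at 1 h and 3 h, a scale that shrinks the change of low genes. In the authors' deposited table GH3.1, at 0.957 TPM with coronatine at 1 h and 1.63 TPM at 3 h, had the larger log2 fold change at 1 h (1.85) and at 3 h (3.63 against 3.03 for GH3.10). GH3.13, listed at 0 in mock leaves, was also above GH3.10 in that table at 3 h. GH3.10 read 157 ± 15.7 TPM against 68.3 ± 12.3 TPM at 1 h, 320 ± 14.1 TPM against 57.2 ± 3.55 TPM at 3 h (log2 difference 2.46, adjusted p = 2.1e-17), 276 ± 6.63 TPM against 30.6 ± 4.50 TPM at 12 h and 146 ± 7.24 TPM against 58.2 ± 1.57 TPM at 24 h. It was thus above JAR1 in every group mean except that of mock leaves at 12 h.

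Of 13 tested GH3 relatives of JAR1, 4 rose and 4 fell at 1 h, 3 rose and 5 fell at 3 h, 9 rose and 1 fell at 12 h, and 10 rose and 2 fell at 24 h. Without mock 1 h replicate 2 the 1 h count was 4 and 3. For all tested genes the shares that rose and fell were 9.52% and 15.3% at 1 h, and 14.2% and 35.7% at 3 h. At 12 h they were 24.3% and 41.4%, and at 24 h 37.2% and 43.5%. The falls of GH3 genes at 3 h were thus near the background. The median log2 difference of these relatives was 0, -0.18, 1.297 and 1.75 at 1, 3, 12 and 24 h. The late rises included enzymes that conjugate auxin and 1 gene of salicylate synthesis. GH3.3, an auxin-conjugating enzyme, was at 337 ± 40.6 TPM against 5.99 ± 0.306 TPM at 12 h (log2 difference 5.59, adjusted p = 3.6e-22). GH3.12 (also known as PBS3), which acts in salicylate synthesis, was at 271 ± 23.2 TPM against 4.95 ± 0.955 TPM at 24 h (log2 difference 5.52, adjusted p = 1.3e-13). GH3.6 fell at 1, 3 and 24 h (3.27 ± 0.272 TPM against 13.2 ± 2.32 TPM at 24 h), and GH3.9 fell at 1, 3, 12 and 24 h.

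**Figure D3:**
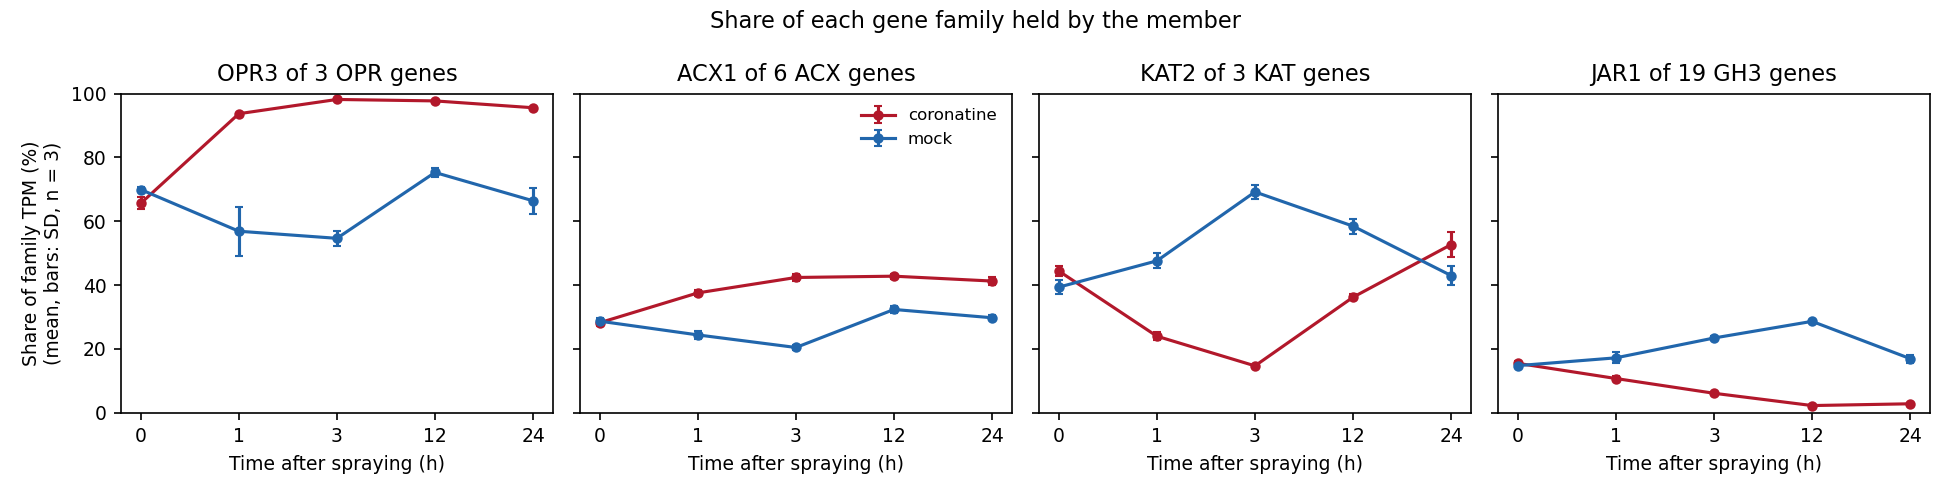
Share (%) of the summed TPM of the OPR, ACX, KAT and GH3 families held by OPR3, ACX1, KAT2 and JAR1, against time after spraying; points are means and bars SD of 3 libraries. With coronatine OPR3 holds 93.7% or more from 1 h on, KAT2 dips to 14.7% at 3 h, and JAR1 falls to 2.28% at 12 h.

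**Figure D4:**
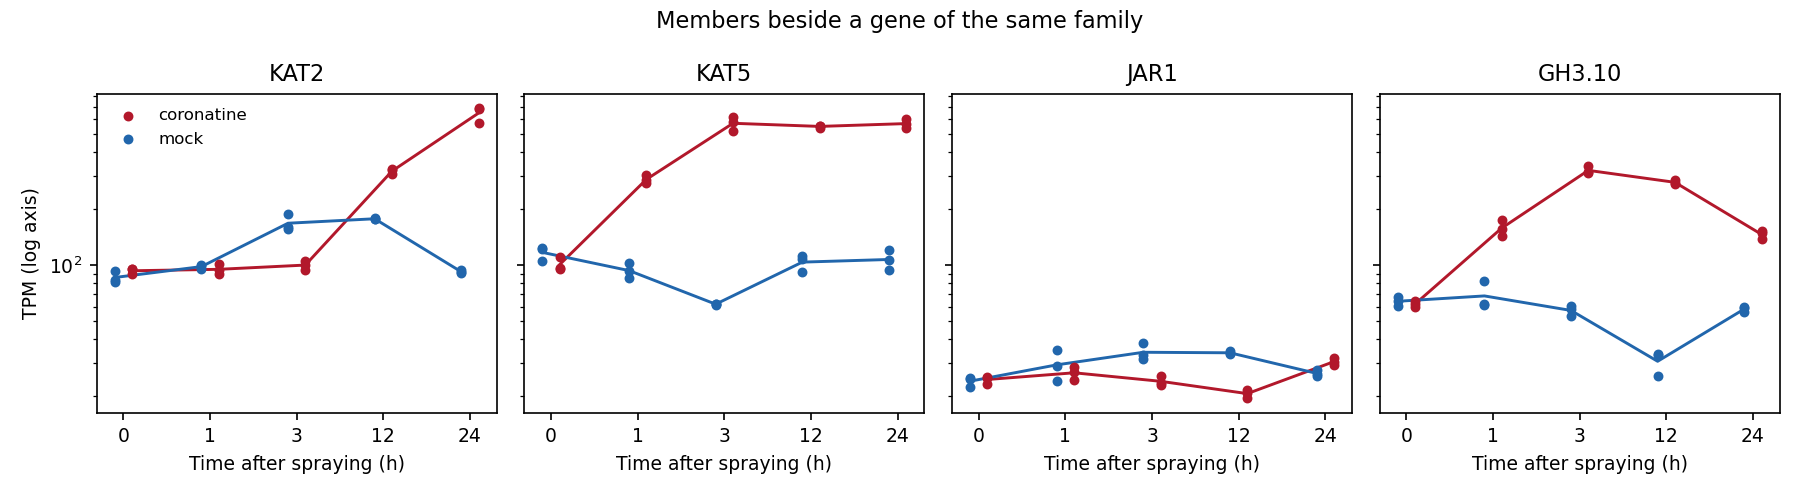
TPM (log axis) of KAT2 beside KAT5 and of JAR1 beside GH3.10 in each library against time after spraying, with lines through group means (red coronatine, blue mock). KAT5 reaches 571 TPM at 3 h while KAT2 is at 99.9 TPM, and GH3.10 reaches 320 TPM while JAR1 is at 23.9 TPM.

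OPCL1 has no family here in the same sense, and it was set against acyl-CoA synthetase relatives. Of 8 tested, 3 rose at 1 h and 3 at 3 h, 4 at 12 h and 6 at 24 h, and 1 fell at 24 h (0 without mock 24 h replicate 3). Of all tested genes, 9.52%, 14.2%, 24.3% and 37.2% rose at 1, 3, 12 and 24 h, and 43.5% fell at 24 h. The 8 relatives had a median log2 difference of 0.03, -0.16, 0.15 and 0.92. The largest rises of the first 12 h were in AT5G38120 (282 ± 16.8 TPM against 9.72 ± 1.56 TPM at 3 h, log2 difference 4.73, adjusted p = 4.7e-20) and in AT1G20490 (79.8 ± 1.67 TPM against 5.23 ± 0.188 TPM at 3 h), which lies close to OPCL1 on chromosome 1. At 24 h the largest were the peroxisomal long-chain synthetases LACS7 (51.1 ± 4.71 TPM against 10.2 ± 1.13 TPM) and LACS6 (106 ± 7.06 TPM against 26.6 ± 1.15 TPM).

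The partners that bring OPDA in and complete beta-oxidation were called in part from 1 h on, and in the largest number at 24 h. Of 7 genes, 3 rose at 1 h (2 if replicate 2 of the coronatine leaves, or replicate 1 or 3 of the mock leaves, was dropped), 3 at 3 h, 4 at 12 h and 6 at 24 h, and 1 (KAT1) fell, at 12 h. The 7 include ACX5, KAT1 and KAT5, already described with their families. Of all tested genes, 9.52%, 14.2%, 24.3% and 37.2% rose at those times, and 41.4% fell at 12 h. The median log2 difference of the 7 genes was 0.01, 0.08, 1.15 and 1.74, against -0.18, -0.46, -0.54 and -0.24 for all tested genes. PXA1, the ABC transporter that imports acyl chains into the peroxisome, went from 17.3 ± 1.2 TPM against 15.3 ± 1.24 TPM at 1 h (adjusted p = 0.021) to 57.0 ± 3.94 TPM against 16.4 ± 0.497 TPM at 24 h (log2 difference 1.74, adjusted p = 2.9e-19). AT1G70480, annotated in the authors' table with a domain of unknown function, read 25.9 ± 0.671 TPM against 15.4 ± 0.656 TPM at 1 h and 59.6 ± 4.05 TPM against 13.5 ± 0.985 TPM at 24 h.

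The multifunctional enzymes that act between ACX1 and KAT2 rose on both scalings only at the later times. MFP2 was called after rescaling alone at 1 h (0.21, adjusted p = 0.036) and 3 h (0.64, adjusted p = 4.4e-08), with 0.01 and 0.08 on TPM, and rose at 12 h (115 ± 3.72 TPM against 51.1 ± 2.53 TPM) and 24 h (185 ± 11.6 TPM against 30.2 ± 1.08 TPM, log2 difference 2.58, adjusted p = 2.2e-21). AIM1 rose on both scalings at 24 h (142 ± 10.9 TPM against 53.9 ± 0.772 TPM, log2 difference 1.38, adjusted p = 3.1e-18). Its 3 h difference was -0.45 on TPM and not called after rescaling, and its 12 h difference of 0.04 on TPM was 0.75 after rescaling (adjusted p = 4.9e-11). In the authors' deposited table MFP2 was higher at 1 h (0.21, adjusted p = 0.030) and 3 h (0.63, adjusted p = 2.8e-15), and AIM1 at 12 h (0.72, adjusted p = 1.7e-28).

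**Figure D5:**
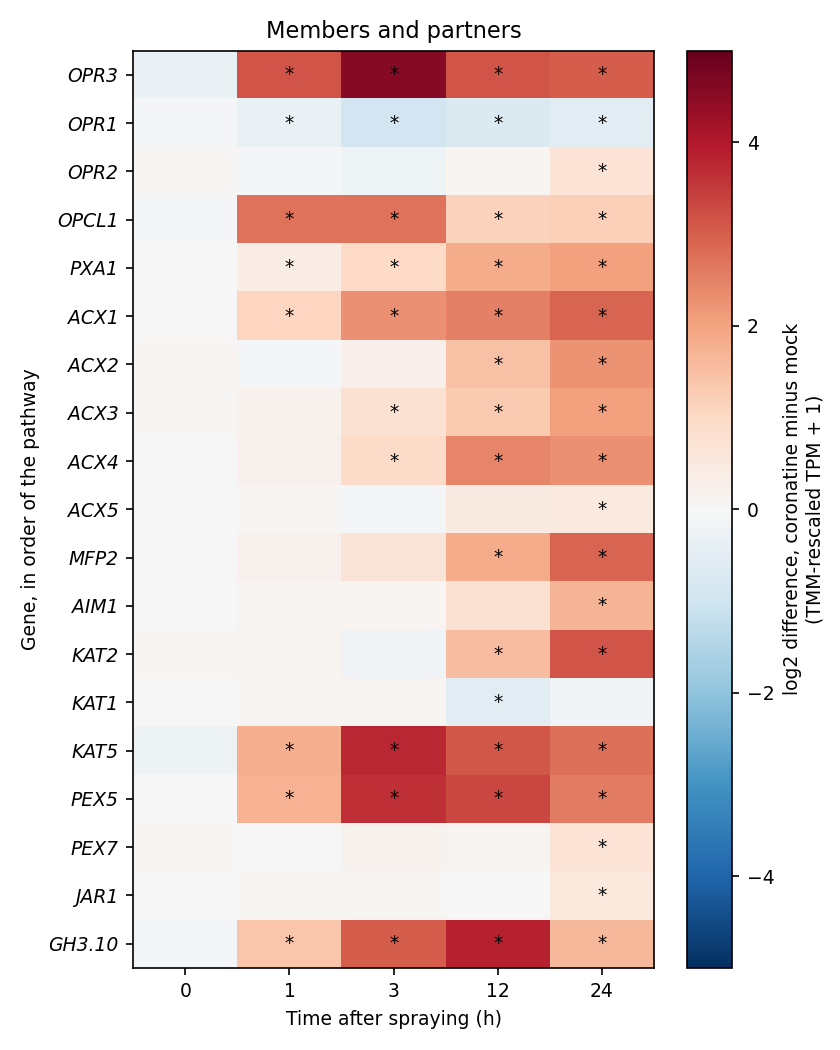
Log2 difference between coronatine and mock leaves after TMM rescaling (colour) for the 5 genes and 14 partners and relatives (rows, in pathway order) at 0, 1, 3, 12 and 24 h (columns); a star marks a gene called on both scalings. OPR3, OPCL1, KAT5, PEX5 and GH3.10 are marked from 1 h, MFP2 and KAT2 from 12 h, and AIM1 and JAR1 at 24 h.

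Upstream of the peroxisome, plastid genes of jasmonate synthesis rose with OPR3 and OPCL1. Of 12 tested genes, 9 rose and 0 fell at 1 h, 10 and 0 at 3 h, 11 and 1 at 12 h, and 10 and 2 at 24 h, and the 1 h count was the same without mock 1 h replicate 2. The shares of all tested genes that rose and fell were 9.52% and 15.3% at 1 h, and 14.2% and 35.7% at 3 h. At 12 h they were 24.3% and 41.4%, and at 24 h 37.2% and 43.5%. The 12 plastid genes had a median log2 difference of 0.70, 2.01, 1.62 and 2.01. LOX3 and LOX4, lipoxygenases that oxidise linolenic acid, were at 446 ± 32.3 TPM against 39.4 ± 23.8 TPM and at 430 ± 35.8 TPM against 37.5 ± 10.4 TPM at 1 h. AOC1, an allene oxide cyclase that closes the ring of OPDA, was at 5379 ± 221 TPM against 589 ± 56.2 TPM at 3 h (adjusted p = 3.8e-18). At 24 h another cyclase, AOC2, fell (166 ± 40.6 TPM against 945 ± 84.5 TPM), as did the desaturase FAD8 (1.75 ± 0.165 TPM against 112 ± 4.28 TPM).

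Peroxins build the peroxisome and import its enzymes. Of 20, 2 rose at 1 h, 5 rose and 6 fell at 3 h, 9 and 5 at 12 h, and 12 and 3 at 24 h, with a median log2 difference of -0.10, -0.40, -0.07 and 0.44. At 3 h 3 rose if replicate 1 or 3 of the coronatine leaves, or replicate 2 of the mock leaves, was dropped. Of all tested genes, 9.52% rose at 1 h, and 14.2% rose and 35.7% fell at 3 h. These shares were 24.3% and 41.4% at 12 h and 37.2% and 43.5% at 24 h. The peroxins that rose at 1 h, and those that fell at 3 h, were thus near or below the background. PEX5, the receptor for the C-terminal import signal carried by OPR3, OPCL1 and ACX1, rose from 1 h and was at 252 ± 4.09 TPM against 28.7 ± 0.330 TPM at 3 h (log2 difference 3.09, adjusted p = 8.6e-25). PEX7, the receptor for the N-terminal signal carried by KAT2, was at 14.2 ± 0.702 TPM against 18.7 ± 0.846 TPM at 3 h and was not called on both scalings before 24 h. It was chosen for that role after its values were seen. PEX11E, a factor in peroxisome division, rose at 24 h (114 ± 9.06 TPM against 20.6 ± 1.92 TPM).

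Over the 10 group means, the patterns of the 5 genes differed among themselves. Pearson's r of log2(TPM + 1) was 0.83 between OPR3 and OPCL1, 0.82 between OPR3 and ACX1, and 0.74 between ACX1 and KAT2. It was 0.37 between OPR3 and KAT2, -0.07 between OPCL1 and KAT2, and between -0.39 and 0.19 for JAR1 with the other 4. These values describe means that share the treatment, the times and the libraries.

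Among 10223 genes with a mean of at least 10 TPM, those whose 10 group means were most like OPR3 were AT1G01260, a bHLH protein, and the lectin receptor kinase LecRK-I.9 (r = 0.993 each), followed by AT5G53750, a CBS domain protein (0.992). Those most like OPCL1 were the transporter ABCG34 (0.982), AT2G34930 (0.969) and AT5G12350 (0.968). Those most like ACX1 were the peroxin PEX19-2 (0.987), AT3G54740 (0.987) and the metal transporter NRAMP3 (0.985). Those most like KAT2 included the plastid oxidase IM (0.997) and AT3G28715, a subunit of a proton-pumping ATPase (0.995). For JAR1 the likeness was lower, with AT5G61520 at 0.974, AT5G65960 at 0.953 and CCC1 at 0.939.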

How the data were processed

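RNA sequencing of whole leaves gave 30 libraries, whose titles name treatment and time. TPM were deposited for 27655 genes. Per the submitters' processing notes, the build was TAIR10 and the tools were RSEM 1.3.3 and DESeq2, with no role stated for each. No source used here names the aligner, the annotation release or the strand setting, so that reads of overlapping antisense genes may be counted together. A second deposited table, 1 sheet for each time, holds per the file headers a normalized signal (base mean), a log2 fold change with its SE, and p-values. That table was used as an alternative and for gene positions and names, and 27445 of 27655 loci had a RefSeq match. TPM keep no depth, so that no counting interval could be given.

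Genes with at least 1 TPM in at least 3 samples (19005, or 68.7%) were tested as log2(TPM + 1) with limma 3.58.1 (trend, R 4.3.3), a mean per group and Benjamini-Hochberg adjustment at 0.05. The pseudocount of 1 understates the change of low genes. TMM factors (0.730 to 1.33) used trims of 30% and 5%. The limma fit was tried on simulated data with far fewer changed genes than were called here from 1 h on. The rescaling was tried on a known scale factor. The rule on both scalings and the share tests were not simulated. Members and lists were chosen with earlier results of these data known. All 5 members are named. From each list, the rule names at each time up to 3 genes that rose and 3 that fell by largest log2 difference and up to 2 that did not pass, besides any OPR relative, any partner and GH3.10. For likeness it names the 3 genes of highest r per member. A gene of the peroxin list and one of the likeness lists are not reported here. Alternatives tried were 0.1 and 5 as pseudocount, a minimum of 5 TPM or none, TMM rescaling, quantile normalization, a replicate block, a fit on the groups compared alone, the authors' table, for family shares the sum over tested genes alone, and leaving out each replicate.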

Additional observations from a re-analysis of the deposited data

Results flagged for a closer look

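The effect of coronatine differed between 2 times, by a test of the difference itself in the limma fit and on both scalings, for each of the following. From 1 to 3 h the log2 effect changed by 1.03 for OPR3, by 0.86 for ACX1 and by -0.68 (-0.32 after TMM rescaling) for KAT2. From 3 to 12 h it changed by -1.56 for OPR3, by -1.74 for OPCL1 and by 1.57 for KAT2. From 12 to 24 h it changed by 0.73 (0.36 rescaled) for ACX1, by 1.96 (1.58 rescaled) for KAT2 and by 0.90 (0.53 rescaled) for JAR1. The median of all tested genes itself shifted by -0.27 from 1 to 3 h and by 0.26 from 12 to 24 h on TPM as deposited. KAT2 therefore appears at each of the 3 steps, with 1 negative and 2 positive changes.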

How the results depend on the processing

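On TMM-rescaled TPM the log2 differences between treatments of ACX1 at 0 h (-0.0035), KAT2 at 1 h (0.15) and JAR1 at 1 h (0.077) and 3 h (0.057) had the other sign, as had the changes of effect of OPCL1 from 1 to 3 h (0.019) and OPR3 from 12 to 24 h (-0.10), and mock leaves against 0 h for OPCL1 at 12 h (-0.15) and ACX1 at 24 h (-0.0012). Calls were lost for KAT2 at 3 h (-0.17), JAR1 at 12 h (-0.0099), the changes of JAR1 from 1 to 3 h (-0.020) and OPCL1 from 12 to 24 h (0.060), and, in mock leaves, OPCL1 (0.17) and JAR1 (0.23) at 1 h and OPR3 at 12 h (0.24). Calls were gained for the change of ACX1 from 3 to 12 h (0.26) and ACX1 in mock leaves at 12 h (-0.34). TMM rescaling also moved the genes called at 1 h from 9733 to 6132. Higher and lower genes went from 2125 and 8679 to 5007 and 4761 for the change from 1 to 3 h, from 8774 and 2864 to 4728 and 5834 for that from 12 to 24 h, and in mock leaves from 9619 and 1922 to 3839 and 4111 at 12 h and from 70 and 27 to 39 and 30 at 24 h. With quantile normalization ACX1 at 0 h (-0.0013) and OPCL1 in mock leaves at 3 h (0.011) and 12 h (-0.045) had the other sign; calls were lost for JAR1 at 24 h (0.093), the changes of JAR1 from 1 to 3 h (-0.16) and OPCL1 from 12 to 24 h (0.11) and OPR3 in mock leaves at 12 h (0.34), and gained for the change of ACX1 from 3 to 12 h (0.27) and ACX1 in mock leaves at 12 h (-0.29). In the authors' deposited table ACX1 at 0 h (-0.0090), KAT2 at 1 h (0.15) and JAR1 at 1 h (0.055) and 3 h (0.033) had the other sign, JAR1 at 12 h (-0.049) was not called, and 6019 genes were called at 1 h. With no filter, JAR1 was not called at 24 h (0.20, adjusted p = 0.052) or in mock leaves at 1 h (0.26, adjusted p = 0.053), and 7 genes rather than 0 were called at 0 h, against 1 with a pseudocount of 0.1. With a minimum of 5 TPM, KAT2 in mock leaves at 1 h was called (0.19, adjusted p = 0.045). In a fit on the groups compared alone, the change of OPR3 from 12 to 24 h was called (0.28), and those of JAR1 from 1 to 3 h (-0.37) and of OPCL1 (0.21) and JAR1 (0.26) in mock leaves at 1 h were not. That fit called 0 genes in mock leaves at 24 h, against 97. The cause of these differences was not tested.

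Leaving out a replicate, values ran from -0.018 to 0.077 for ACX1 and -0.016 to 0.063 for JAR1 at 0 h, -0.25 to 0.013 for JAR1 at 1 h, 0.17 to 0.23 for JAR1 at 24 h and -0.51 to -0.24 for its change from 1 to 3 h. In mock leaves against 0 h they ran from -0.12 to 0.34 for OPR3, 0.14 to 0.26 for OPCL1, 0.15 to 0.26 for KAT2 and 0.13 to 0.40 for JAR1 at 1 h, -0.078 to 0.039 for OPCL1 at 3 h and -0.015 to 0.080 for ACX1 at 24 h. Genes called ran from 0 to 1 at 0 h and from 21 to 75 in mock leaves at 24 h. The ACX1 share at 0 h differed by -0.775 to 0.0701 percentage points. On TPM as deposited, the other values of the 5 genes kept their direction and their side of the threshold when any replicate was left out. After rescaling KAT2 at 3 h was called without coronatine replicate 1 or mock replicate 2 of that time.

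Replicate numbers did not pair the samples: same-numbered coronatine and mock samples had correlations of deviations from -0.25 to 0.12, over 0.1 in 2 of 15 pairs, and 3 of 15 coronatine samples correlated best with their own number. With a replicate block, KAT2 in mock leaves at 1 h was called (0.19, adjusted p = 0.043) and 1 gene was called at 0 h. The block changed no other call among 60 values of the 5 genes. TPM hold no depth, so that limits set by depth cannot be given.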

Other observations

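Other genes linked to peroxisomal oxidation, outside the jasmonate route, were called in both directions. Of 14 genes, 1 rose at 1 h, 2 rose and 2 fell at 3 h, 8 rose and 4 fell at 12 h, and 10 rose and 3 fell at 24 h. Of all tested genes, 9.52% rose at 1 h, and 14.2% rose and 35.7% fell at 3 h. The shares were 24.3% and 41.4% at 12 h, and 37.2% and 43.5% at 24 h. The counts of genes that rose at 1 and 3 h were thus near the background. Those that fell at 3, 12 and 24 h were below it. The 3 h count was 1 and 0 without mock 3 h replicate 3. Their median log2 difference at 24 h was 1.59, against -0.24 for all tested genes. CSY3, a peroxisomal citrate synthase that acts on the acetyl-CoA released by thiolases, was at 167 ± 15.1 TPM with coronatine against 22.9 ± 1.27 TPM in mock leaves at 24 h (log2 difference 2.81, adjusted p = 6.1e-21). SCP2, a lipid transfer protein, was at 250.2 ± 18.5 TPM against 42.3 ± 1.57 TPM. The genes that fell at 24 h were PMDH2, a malate dehydrogenase (28.2 ± 8.34 TPM against 868 ± 8.80 TPM, log2 difference -4.93), and the catalases CAT3 (478 ± 75.8 TPM against 2496 ± 175 TPM) and CAT2 (321 ± 54.1 TPM against 744 ± 27.7 TPM). Another catalase, CAT1, rose (95.4 ± 12.0 TPM against 14.5 ± 1.22 TPM, log2 difference 2.63, adjusted p = 7.4e-20).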
